A study of Mus musculus with 12 samples.

Results

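The genotype difference in the pausing response was measured in E14 mouse embryonic stem cells. It is the change of each gene on pausing in Mettl3-knockout (KO) cells minus the change of that gene in wild-type (WT) cells. All 12 RNA-seq libraries of the series entered it, 3 in each of 4 groups, and 15281 of 24421 gene rows passed a filter on low counts. WT FBS and KO FBS cells grew in serum with LIF for 2 weeks. WT paused and KO paused cells received the mTOR inhibitor INK128 at 200 nM for those 2 weeks, and all 4 groups were kept on gelatin. The labels do not say whether the KO line is 1 clone or whether replicates were separate cultures, so p-values measure only the spread between these libraries.

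mTOR is the kinase that couples nutrients and growth factors to protein synthesis, ribosome production and lipid synthesis. Its inhibition brings mouse embryonic stem cells into a slow, reversible state that resembles diapause, the pause of the early embryo. Mettl3 is the enzyme that methylates adenosines in messenger RNA (N6-methyladenosine, m6A), a mark that often shortens the life of a transcript. The design asks whether cells without Mettl3 answer mTOR inhibition as WT cells do.

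Levels are counts per 1000000 gene counts (CPM) scaled by TMM factors over genes, so that a change is relative to the typical gene. The genotype difference is a log2 value, written with its standard error (SE), and is higher where KO cells gained more or lost less than WT cells. A gene was called where the edgeR quasi-likelihood test gave a Benjamini-Hochberg adjusted p below 0.05, and all adjusted p-values of single genes below come from it. On the per-cell scale, libraries were scaled instead to ERCC spike-in RNA added to lysates of equal cell number. Total counts ran from 10615548 to 39566713 per library. The embryonic stem cell markers Pou5f1, Sox2, Nanog, Esrrb and Zfp42 had group means of at least 176 CPM. The 4 Y-linked genes had 593 to 3124 counts each in KO libraries and 0 to 7 in WT libraries, so the lines differ by more than Mettl3. WT FBS replicate 1 differed over 2-fold from the other replicates of its group at 2559 genes, against 81 to 759 genes for each other library, and counts of list members are therefore also given without it, beside the 24.3% of all genes then higher and the 17.1% lower.

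Mettl3 itself (chromosome 14, 52294841 to 52305128, GRCm38) stood at 31.2, 37.4 and 33.0 CPM in WT FBS libraries and at 35.0, 39.1 and 33.6 in WT paused libraries. KO FBS libraries held 25.5, 27.5 and 28.6 CPM and KO paused libraries 28.8, 31.4 and 30. Whole-gene counts do not separate an edited transcript from an intact one, so these levels do not check the labels. The genotype difference in its pausing response was 0.07 ± 0.14 SE (edgeR adjusted p = 0.78).

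Pausing met a different response in the knockout at 2731 genes, 17.9% of those tested. The difference was higher at 1469 genes (9.61%) and lower at 1262 genes (8.26%), around a median over all genes of 0.09. Called genes had a median absolute difference of 1.01, and 1389 of them differed by at least 1 on the log2 scale. Without WT FBS replicate 1, 3796 genes (24.3%) were higher and 2667 (17.1%) lower. The number higher was 909 to 969 without any one of KO FBS replicates 1 and 2, WT paused replicate 3 and KO paused replicates 2 and 3.

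Most called differences were a response called in 1 genotype and not in the other. Pausing changed 38.2% of genes in WT cells (18% rose, 20.2% fell) and 42.7% in KO cells (23.3% rose, 19.4% fell). Among genes with a higher difference, 631 rose in KO cells with no call in WT cells, and 437 fell in WT cells with no call in KO cells. Among genes with a lower difference, 516 fell in KO cells with no call in WT cells, and 368 rose in WT cells with no call in KO cells. A further 344 genes were called in opposite directions: 180 rose in WT and fell in KO cells, and 164 fell in WT and rose in KO cells. These were 415 and 472 without WT FBS replicate 1. The gap between KO and WT cells was smaller when paused at 53.1% of called genes and at 53% of all tested genes.

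**Figure D1:**
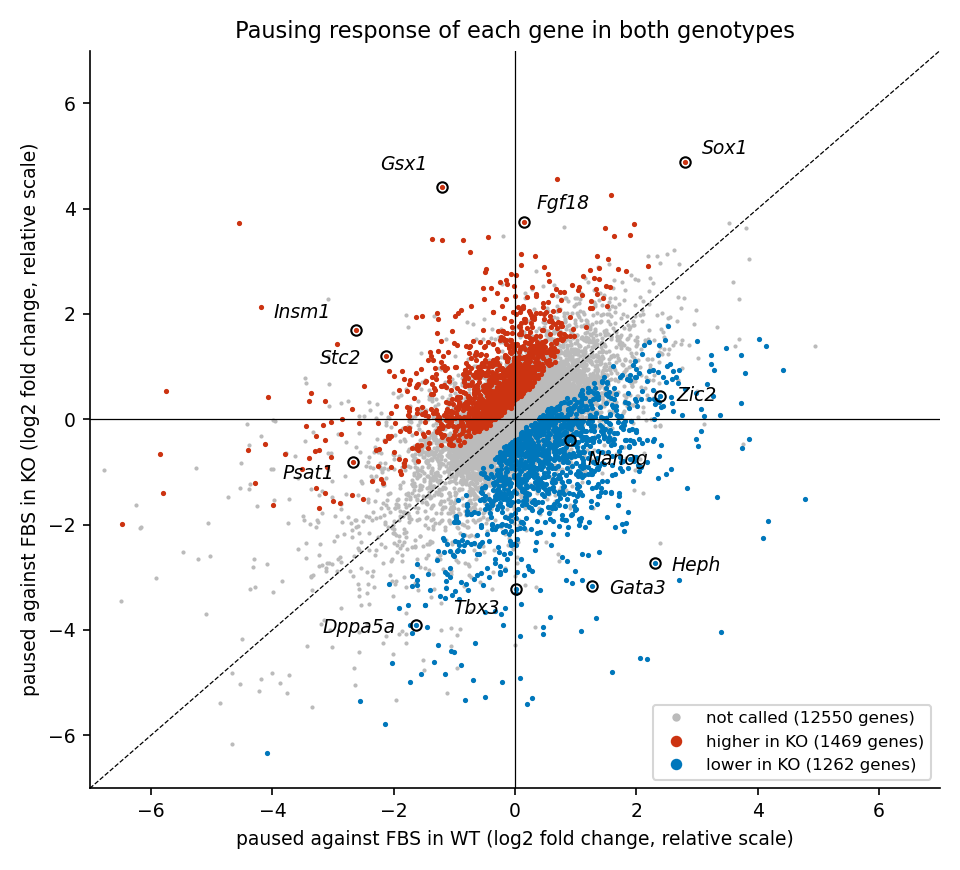
Each point is a gene, placed by its log2 change on pausing in WT cells (horizontal axis) and in KO cells (vertical axis). Colours mark the 1469 genes with a higher and the 1262 with a lower change in KO cells, the dashed diagonal marks equal changes, and 4 genes lie outside the axes.

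Genes of naive pluripotency, the ground state of embryonic stem cells, and of general pluripotency had more lower than higher calls. Of 30 tested, 8 were lower and 1 was higher, beside 8.26% and 9.61% of all genes, with a list median of -0.16. Pausing raised 13 and lowered 2 of them in WT cells, beside 18% and 20.2% of all genes. In KO cells it raised 11 and lowered 6, beside 23.3% and 19.4%. The list's summed level rose on pausing in both genotypes. It was 8090 to 8830 CPM in WT FBS, 10300 to 10900 in WT paused, 4700 to 5370 in KO FBS and 5520 to 5950 in KO paused libraries. Leaving out WT FBS replicate 1, 12 were lower and 6 higher, beside 17.1% and 24.3% of all genes. Per cell 3 were lower and 0 higher, beside 1.66% and 3.04%.

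Nanog, a core transcription factor of this state (chromosome 6, 122707489 to 122714633), held 169, 243 and 249 CPM in WT FBS and 421, 412 and 412 in WT paused libraries. In KO cells it held 215, 227 and 255 CPM in FBS and 171, 185 and 172 when paused. Paused libraries lay above all FBS libraries in WT cells and below all FBS libraries in KO cells. Nanog thus rose by 0.91 ± 0.13 in WT cells and fell by 0.40 ± 0.13 in KO cells, a difference of -1.31 ± 0.18 SE (edgeR adjusted p = 0.000507). Per cell the difference was -1.03 and was not called (adjusted p = 0.215).

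Tbx3, a T-box factor of the naive network (chromosome 5, 119670669 to 119684724), held 286, 113 and 142 CPM in WT FBS and 174, 173 and 194 in WT paused libraries. KO FBS libraries held 25, 25 and 26.6 CPM and KO paused libraries 3.04, 3.40 and 1.92. The WT groups overlapped, whereas the KO groups did not. The KO fall gave a difference of -3.23 ± 0.42 SE (edgeR adjusted p = 0.000335), and it was called per cell as well (-2.94).

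Dppa5a, a marker of pluripotent cells, fell in both genotypes and further in KO cells. WT libraries went from 194, 343 and 360 CPM to 89.1, 93.1 and 107, and KO libraries from 159, 166 and 185 to 9.60, 11 and 13.4. All KO paused libraries lay far below those of the other groups (difference -2.27 ± 0.28 SE, edgeR adjusted p = 0.00024). Zfp57, which guards imprinted methylation, rose in WT cells by 1.10 and stood at -0.03 in KO cells (difference -1.13 ± 0.26 SE).

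Klf4 was the 1 pluripotency gene of this list with a higher difference. This Krüppel-like factor rose in both genotypes, by 0.75 in WT and 1.84 in KO cells (difference 1.09 ± 0.26 SE, edgeR adjusted p = 0.0127). It went from 69.4, 86.7 and 85.0 to 256, 296 and 309 CPM in KO cells, and from 301, 173 and 217 to 318, 400 and 439 in WT cells. Pou5f1 (-0.17, adjusted p = 0.663) and Sox2 (0.17, adjusted p = 0.609) were not called. Sox2 was called, at 0.33, without WT FBS replicate 1 (edgeR adjusted p = 0.0217).

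**Figure D2:**
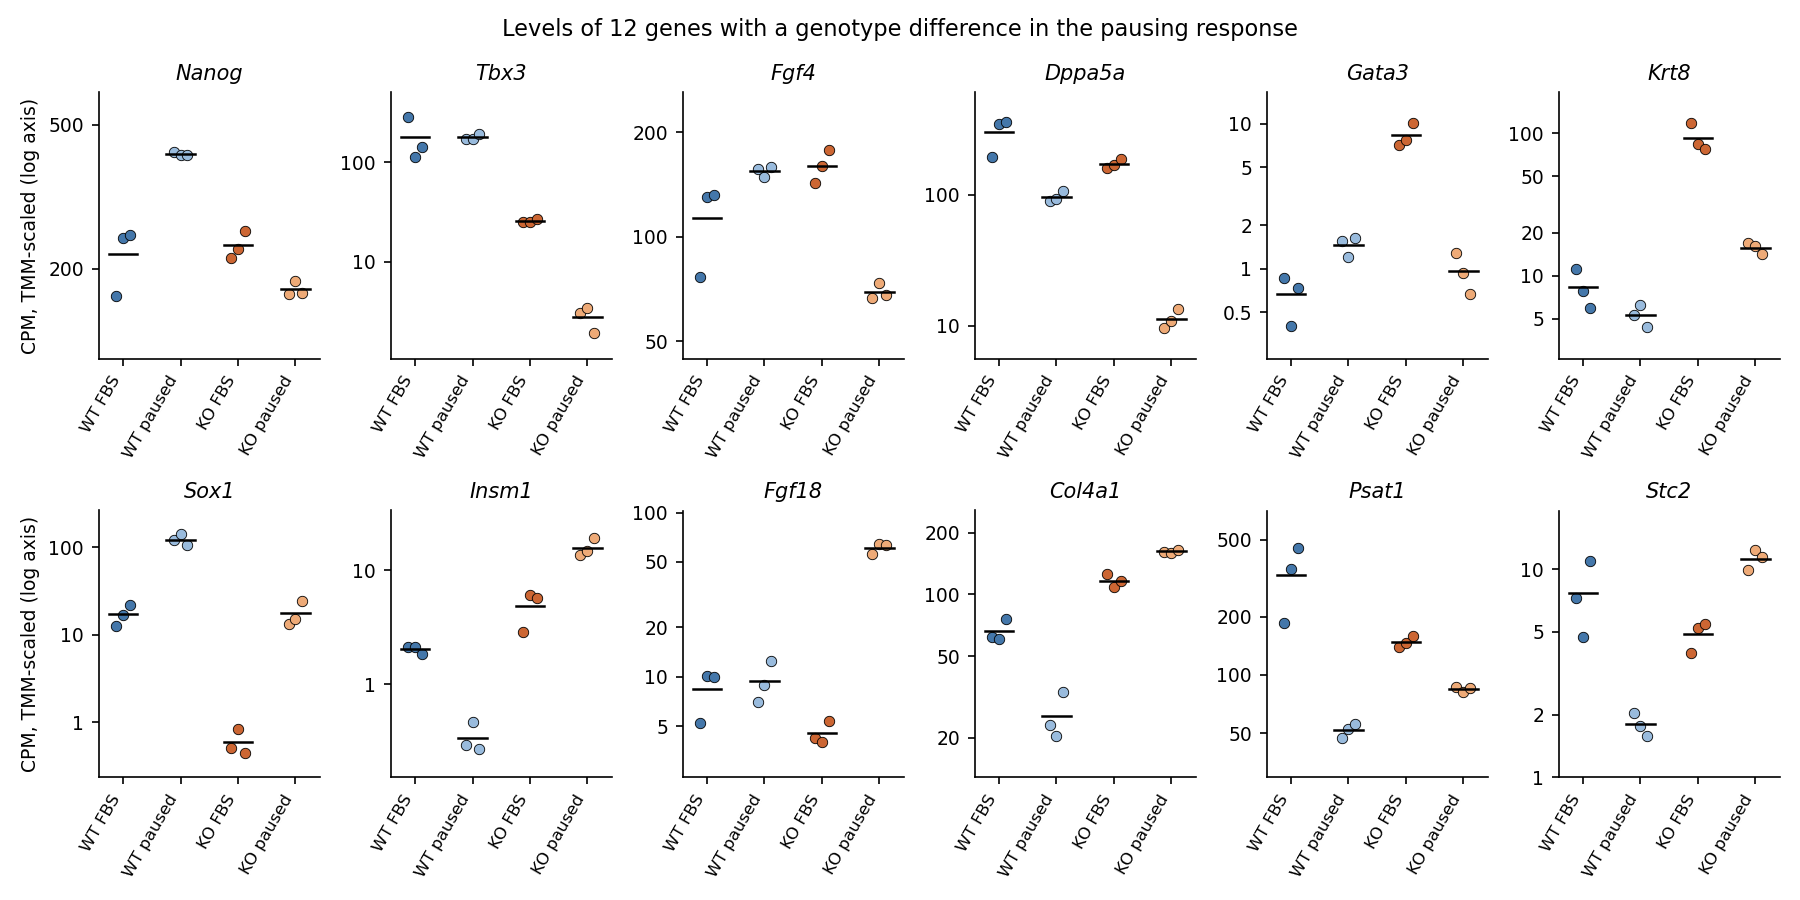
Points are CPM (log axis) of 3 libraries in each of 4 groups for 12 genes, and bars are group means. Nanog, Gata3, Insm1, Col4a1 and Stc2 moved in opposite directions in WT and KO cells, while Tbx3 and Fgf18 were called on pausing in KO cells and not in WT cells.

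Genes of formative and primed pluripotency, which appear as cells leave the naive state, gave 4 higher and 1 lower of 19 tested, beside 9.61% and 8.26% of all genes (median 0.30, and -0.13 once the genes of 3 chromosome stretches described further on were left out). Cdh2, a cadherin of neural and primed cells, held 8.57, 11.8 and 13.9 CPM in WT FBS and 9.44, 8.19 and 10.3 in WT paused libraries. KO libraries rose from 18.8, 24.9 and 26.9 to 56.8, 55.4 and 67.1 CPM, without overlap (difference 1.65 ± 0.25 SE, edgeR adjusted p = 0.00097). Zic2, a zinc-finger factor, went the other way: it rose by 2.39 in WT cells and stood at 0.43, not called, in KO cells (difference -1.96 ± 0.37 SE). Its paused libraries came to similar levels, 122 to 134 CPM in WT and 110 to 123 in KO cells. The list had 9 higher and 4 lower members without WT FBS replicate 1, and 2 higher without KO FBS replicate 1.

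Trophoblast genes, of the lineage that forms the placenta, lost more in paused KO cells. Of 20 tested, 8 were lower and 1 was higher, beside 8.26% and 9.61% of all genes (median -0.80). Pausing lowered 18 of them in KO cells and 9 in WT cells, beside 19.4% and 20.2% of all genes. Without WT paused replicate 3, 4 were lower, and without WT FBS replicate 1, 9. Per cell 3 were lower, beside 1.66% of all genes.

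Gata3, a regulator of this lineage (chromosome 2, 9857078 to 9890034), held 7.17, 7.77 and 10.1 CPM in KO FBS and 1.27, 0.930 and 0.670 in KO paused libraries. WT libraries held 0.867, 0.399 and 0.738 CPM in FBS and 1.56, 1.21 and 1.63 when paused. KO FBS libraries stood above all others, and the remaining groups lay within a narrow range. Gata3 rose by 1.27 ± 0.34 in WT cells and fell by 3.16 ± 0.27 in KO cells, a difference of -4.43 ± 0.43 SE (edgeR adjusted p = 4.55e-05).

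Krt8, a keratin of simple epithelia, went from 118, 83.5 and 77.9 CPM in KO FBS to 16.9, 16.2 and 14.1 in KO paused libraries. WT libraries held 11.2, 7.75 and 5.97 CPM in FBS and 5.26, 6.24 and 4.38 when paused, with overlap (difference -1.94 ± 0.32 SE, edgeR adjusted p = 0.00167). Fgfr2, an FGF receptor, was the member with a higher difference: it fell by 0.69 in WT cells and was not called in KO cells (difference 1.01 ± 0.21 SE). The summed level of the list ran from 580 to 750 CPM in KO FBS, 417 to 429 in KO paused, 326 to 401 in WT FBS and 251 to 300 in WT paused libraries. Of the markers of this lineage, Elf5 had 6 to 11 counts in each KO FBS library and 0 or 1 in every other library. Cdx2 and Krt7 fell in both genotypes and did not show a larger loss in KO cells. Mean Cdx2 went from 0.922 to 0.14 CPM in WT and from 1.25 to 0.341 in KO cells. Mean Krt7 went from 0.275 to 0.0151 CPM in WT and from 5.2 to 0.372 in KO cells. Both had 0 to 3 counts in each WT paused library. In bulk RNA, fewer cells of a type and less RNA per cell cannot be told apart.

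Germline genes that DNA methylation normally keeps silent gave 9 lower and 0 higher of 20 tested by edgeR, beside 8.26% and 9.61% of all genes. By an unadjusted p below 0.05 and by DESeq2, 0 were higher as well. The list median was -1.06, and -1.02 over the 19 members with a count in every group. Pausing lowered 12 and raised 1 of them in KO cells, beside 19.4% and 23.3% of all genes. In WT cells it lowered 3 and raised 4, beside 20.2% and 18%. The list's summed level rose in WT cells, from 133 to 184 CPM in FBS to 309 to 333 in paused libraries. KO libraries held 338 to 423 CPM in FBS and 312 to 347 when paused, with overlap. The count of lower members was 9 or 10 whichever library was left out. Per cell it was 3, beside 1.66% of all genes. Sycp1 and Tex19.1 lie in the chromosome stretches described further on, and 7 of the 9 lie outside them. Sycp1 (-1.02) went against its stretch on chromosome 3, where 105 of 200 tested genes were higher and 8 lower.

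Stk31, a kinase of germ cells, held 5.11, 5.87 and 5.62 CPM in WT FBS, 6.04, 4.56 and 7.54 in WT paused, 7.38, 6.85 and 8.46 in KO FBS and 0.783, 1.02 and 1.07 in KO paused libraries. Only the KO paused group stood apart (difference -3.10 ± 0.28 SE, edgeR adjusted p = 2.9e-05). Piwil2, which binds the small RNAs that silence transposons, rose by 1.03 in WT cells, from 9.92, 10.5 and 10.6 to 20.1, 22.8 and 20.7 CPM. In KO cells it fell by 0.43, from 14.3, 15.5 and 14.9 to 10.7, 10.0 and 12.5 CPM (difference -1.46 ± 0.15 SE, edgeR adjusted p = 7e-05). Mov10l1, a helicase of the same pathway, fell in KO cells by 1.69 and was not called in WT cells (difference -1.95 ± 0.31 SE).

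Neural genes differed upward. Of 20 tested, 7 were higher and 0 lower by edgeR, beside 9.61% and 8.26% of all genes. By an unadjusted p below 0.05, 1 was lower, and 1 by DESeq2. The median was 1.23, which was also the median over the 16 members with a count in every group. Pausing raised 11 of them in KO cells and 2 in WT cells, beside 23.3% and 18% of all genes. Per cell 6 were higher, beside 3.04% of all genes. On the relative scale 8 were higher without WT FBS replicate 1, and 5 without KO FBS replicate 1.

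Insm1, a zinc-finger factor of neural and endocrine precursors that is not in the list (chromosome 2, 146221921 to 146225020), held 2.12, 2.14 and 1.86 CPM in WT FBS and 0.292, 0.466 and 0.271 in WT paused libraries. In KO cells it went from 2.88, 6.04 and 5.71 to 13.6, 14.6 and 19.3 CPM. The paused groups lay at opposite ends of the range, with both FBS groups between them. It fell by 2.62 ± 0.43 in WT cells and rose by 1.69 ± 0.23 in KO cells, a difference of 4.30 ± 0.48 SE (edgeR adjusted p = 0.000103).

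Sox1, a marker of the early neural plate (chromosome 8, 12395295 to 12400126), rose in both genotypes. WT libraries went from 12.8, 17.0 and 22.2 to 121, 142 and 106 CPM, and KO libraries from 0.515, 0.848 and 0.447 to 13.4, 15.3 and 24.6. KO cells thus began lower and gained more (difference 2.08 ± 0.43 SE, edgeR adjusted p = 0.00579), and paused KO libraries overlapped WT FBS libraries. Neurod1, a basic helix-loop-helix factor of neurons, fell by 1.55 in WT cells and rose by 0.95 in KO cells (difference 2.50 ± 0.35 SE). The homeobox gene Six3 had 9 counts over the WT FBS and 0 over the WT paused libraries, against 46 over the KO FBS and 567 over the KO paused libraries. The summed level of the list was 119 to 174 CPM in WT FBS, 232 to 287 in WT paused, 199 to 248 in KO FBS and 369 to 426 in KO paused libraries. The neurogenic factor Neurog2 had 0 to 2 counts per library.

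Extraembryonic endoderm genes gave 8 higher and 1 lower of 20 tested, beside 9.61% and 8.26% of all genes (median 1.13). Pausing lowered 16 of them in WT cells and 7 in KO cells, beside 20.2% and 19.4% of all genes. Per cell 7 were higher, beside 3.04% of all genes. On the relative scale 5 were higher without KO FBS replicate 2, and 8 were higher and 3 lower without WT FBS replicate 1. Col4a1, a basement membrane collagen (chromosome 8, 11198423 to 11312826), went from 62.1, 60.2 and 76.2 to 23.2, 20.3 and 33.3 CPM in WT cells. In KO cells it went from 125, 108 and 116 to 161, 160 and 165 CPM. It fell by 1.36 ± 0.16 in WT cells and rose by 0.47 ± 0.15 in KO cells, a difference of 1.83 ± 0.22 SE (edgeR adjusted p = 0.000168). Its partner chain Col4a2 did likewise (-0.62 and 0.85, difference 1.47 ± 0.20 SE).

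Gata6, a master regulator of primitive endoderm, held 4.62, 5.13 and 6.64 CPM in WT FBS libraries and 0.195 to 0.798 CPM in all 9 others. The WT fall of 3.29 ± 0.33 gave a difference of 2.98 ± 0.49 SE (edgeR adjusted p = 0.00173). Lamc1, a laminin chain, was the member with a lower difference (-0.59 ± 0.14 SE). The list's summed level was 1420 to 2080 CPM in WT FBS, 2000 to 2100 in WT paused, 1140 to 1250 in KO FBS and 1310 to 1360 in KO paused libraries. Fibroblast and mesenchyme genes gave 5 higher and 2 lower of 22, beside 9.61% and 8.26% of all genes (median 0.15). Without WT FBS replicate 1 they gave 5 and 4, shares near the 24.3% and 17.1% of all genes. The summed level of these fibroblast and mesenchyme genes was 1660 to 3220 CPM in WT FBS and 2770 to 2940 in WT paused libraries. It was 1330 to 1440 CPM in KO FBS and 1800 to 1870 in KO paused libraries. Of the fibroblast markers, Postn had 0 to 2 counts per library. Col1a1 had 107 to 159 counts in KO FBS, 20 to 53 in KO paused, 23 to 107 in WT FBS and 3 to 8 in WT paused libraries, and Thy1 had 81 to 111, 20 to 46, 17 to 82 and 5 to 9. Their part in the results was not tested.

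FGF ligands and receptors feed the ERK pathway, which drives exit from the naive state. Of 15 tested, 5 were higher and 2 lower, beside 9.61% and 8.26% of all genes (median 0.58). Fgf18 (chromosome 11, 33117430 to 33147400) held 5.20, 10.0 and 9.98 CPM in WT FBS and 7.01, 8.84 and 12.4 in WT paused libraries. KO FBS libraries held 4.25, 3.99 and 5.33 CPM and KO paused libraries 56.2, 64.0 and 63.1. Only the KO paused group stood apart (difference 3.60 ± 0.33 SE, edgeR adjusted p = 3.28e-05). Fgf1 rose in both genotypes and more in KO cells (1.58 and 4.26, difference 2.68 ± 0.38 SE).

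Fgf4, the main FGF ligand of embryonic stem cells, had a lower difference. It rose in WT cells from 76.4, 130 and 132 to 157, 148 and 159 CPM and fell in KO cells from 143, 160 and 177 to 66.8, 73.6 and 67.9. KO paused libraries lay below all others (difference -1.66 ± 0.24 SE, edgeR adjusted p = 0.000627). The list had 7 higher and 2 lower members without WT FBS replicate 1 and 4 higher without KO paused replicate 3. Per cell 4 were higher and 1 lower, beside 3.04% and 1.66% of all genes.

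Targets and inhibitors downstream of FGF were counted in the ERK feedback list, with 4 higher and 2 lower of 23, beside 9.61% and 8.26% of all genes (median 0.29). Without WT FBS replicate 1, 7 were higher and 6 lower, and without KO FBS replicate 1, 0 were lower. Spry4, an inhibitor induced by ERK, went from 94.6, 88.9 and 88.5 to 381, 365 and 347 CPM in KO cells and from 240, 280 and 246 to 366, 396 and 304 in WT cells. The genotypes did not overlap in FBS and overlapped when paused (difference 1.53 ± 0.15 SE, edgeR adjusted p = 4.09e-05). Spry2, a related inhibitor, rose in KO cells by 0.93 and was not called in WT cells (difference 1.08 ± 0.11 SE), and the ETS factor Etv1 rose by 0.58 in WT and 1.61 in KO cells (difference 1.03 ± 0.16 SE). The BMP pathway and its Id targets gave 1 higher and 3 lower of 19, beside 9.61% and 8.26% of all genes (median -0.29). Without WT FBS replicate 1 they gave 1 and 4, beside 24.3% and 17.1%. Bmp4, a ligand that sustains self-renewal with LIF, fell in KO cells from 9.49, 9.96 and 9.93 to 3.23, 3.40 and 2.10 CPM. In WT cells it held 23.0 to 40 CPM in FBS and 29.7 to 32.0 when paused (difference -1.77 ± 0.28 SE, edgeR adjusted p = 0.00138).

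Atf4 drives genes for amino acid synthesis and uptake when amino acids are short, and mTOR also raises its output. Of 41 tested Atf4 targets, 17 were higher and 0 lower by edgeR, beside 9.61% and 8.26% of all genes, with a median of 0.97. By an unadjusted p below 0.05, 23 were higher and 0 lower, and by DESeq2 19 and 0. The list's median pausing change was -0.95 in WT and -0.18 in KO cells. Pausing lowered 30 of them in WT cells and 11 in KO cells, beside 20.2% and 19.4% of all genes. Per cell 15 were higher, beside 3.04% of all genes. On the relative scale 27 were higher and 1 lower without WT FBS replicate 1, and 9 were higher without KO paused replicate 3.

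Psat1, an enzyme of serine synthesis (chromosome 19, 15904678 to 15947337), went from 185, 352 and 452 to 47.1, 52.3 and 55.6 CPM in WT cells and from 139, 145 and 159 to 86.0, 81.0 and 85.5 in KO cells. Both genotypes lost it without overlap, and WT cells lost more (difference 1.86 ± 0.32 SE, edgeR adjusted p = 0.0023). Stc2, a secreted glycoprotein induced by stress (chromosome 11, 31357307 to 31370074), fell in WT cells from 7.32, 4.73 and 11 to 2.04, 1.77 and 1.58 CPM. In KO cells it rose from 3.95, 5.23 and 5.49 to 9.94, 12.4 and 11.5 CPM (difference 3.32 ± 0.40 SE, edgeR adjusted p = 0.000176). Atf5, a related transcription factor, likewise fell in WT and rose in KO cells (-0.63 and 0.55, difference 1.18 ± 0.19 SE). Cebpg, a partner of Atf4, rose in KO cells by 0.93 and was not called in WT cells (difference 1.00 ± 0.15 SE).

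The promoters of these genes were searched for TGATGNAA, the core of the element bound by Atf4 with C/EBP partners, on both strands of the 250 bases before the RefSeq start (GRCm38). A window was found for 36 of the 41 tested members. The motif stood in 9 of the 36 (25%), in 3 of the 17 called members (17.6%), in 2.43% of all tested genes with a window and in 3.91% of all RefSeq windows. The 3 called members that hold it are printed to show the motif where it stands, with the motif or its reverse complement in capitals. They were chosen after their values were seen.
Chac1: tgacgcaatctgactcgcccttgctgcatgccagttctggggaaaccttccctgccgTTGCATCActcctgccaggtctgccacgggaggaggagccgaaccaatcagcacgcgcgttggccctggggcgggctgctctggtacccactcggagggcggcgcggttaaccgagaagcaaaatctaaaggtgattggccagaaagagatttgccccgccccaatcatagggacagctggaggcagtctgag
Nupr1: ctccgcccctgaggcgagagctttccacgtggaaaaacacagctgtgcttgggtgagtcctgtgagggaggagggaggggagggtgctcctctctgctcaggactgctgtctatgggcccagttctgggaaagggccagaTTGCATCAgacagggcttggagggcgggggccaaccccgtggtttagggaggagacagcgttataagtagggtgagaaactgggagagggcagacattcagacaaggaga
Got1: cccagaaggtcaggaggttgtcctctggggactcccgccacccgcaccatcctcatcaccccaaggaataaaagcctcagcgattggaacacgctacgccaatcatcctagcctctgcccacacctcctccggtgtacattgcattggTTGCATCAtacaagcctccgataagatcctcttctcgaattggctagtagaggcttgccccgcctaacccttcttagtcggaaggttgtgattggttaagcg
These windows are chr2:119350992-119351241 (plus strand), chr7:126625471-126625720 (minus strand) and chr19:43524606-43524855 (minus strand). A match is a description of letters and not of binding.

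Each of the 3 calls was lost when some single library was left out. Got1, which makes aspartate, was at -0.35 in WT and 0.19 in KO cells (difference 0.54 ± 0.17 SE, edgeR adjusted p = 0.0422), and was called without WT FBS replicate 1, WT paused replicate 2 or KO FBS replicate 3 but in none of the other 9 such fits. Nupr1, a stress-induced nuclear protein, had 299 counts over the WT FBS, 1 over the WT paused, 90 over the KO FBS and 20 over the KO paused libraries. Its call (edgeR adjusted p = 0.016) was lost without WT paused replicate 3 (0.0569) or KO paused replicate 3 (0.0669). Chac1, which breaks down glutathione, averaged 8.37 CPM in WT FBS with a spread larger than that mean (SD 9.36, n = 3), and held 0.779 to 2.44 CPM in all libraries of the other groups. Its difference of 3.49 (edgeR adjusted p = 0.0267) was 2.07 without WT FBS replicate 3, and its adjusted p ran from 0.0139 to 0.0811 as single libraries were left out.

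Cytosolic aminoacyl-tRNA synthetases, which load amino acids onto tRNA, gave 7 higher of 20, beside 9.61% of all genes (median 0.50). Pausing lowered 18 of them in WT cells and 5 in KO cells, beside 20.2% and 19.4% of all genes. Gars, for glycine, went from 330, 413 and 502 to 179, 198 and 176 CPM in WT cells and from 175, 188 and 203 to 151, 160 and 153 in KO cells. WT FBS libraries stood above all others (difference 0.88 ± 0.18 SE, edgeR adjusted p = 0.00613). All 20 were higher without WT FBS replicate 1, beside 24.3% of all genes, and without KO FBS replicate 1, 4 were higher. Per cell 1 was higher, beside 3.04% of all genes.

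Lipid genes, which mTOR raises through SREBP factors, had more higher than lower members. Fatty acid genes gave 6 higher and 1 lower of 18 (median 0.42), and cholesterol genes 4 higher and 0 lower of 27 (median 0.45), beside 9.61% and 8.26% of all genes. The median pausing change of fatty acid genes was alike in both genotypes, -0.53 in WT and -0.60 in KO cells. That of cholesterol genes was -0.74 and -0.25. Pausing lowered 11 fatty acid genes in WT and 10 in KO cells, and 18 and 4 cholesterol genes, beside 20.2% and 19.4% of all genes. Per cell, 2 fatty acid genes and 0 cholesterol genes were higher by edgeR, 2 and 0 by DESeq2, and 7 and 8 by an unadjusted p below 0.05. On the relative scale without WT FBS replicate 1, 10 fatty acid genes were higher and 3 lower, and 18 cholesterol genes were higher and 0 lower. On that scale 4 fatty acid genes were higher without KO FBS replicate 1, and 2 cholesterol genes without KO paused replicate 3. Scd1, a desaturase, went from 55.2, 82.5 and 73.8 to 9.54, 9.03 and 10.1 CPM in WT cells and from 61, 66.1 and 72.1 to 21.5, 21.3 and 23.2 in KO cells (difference 1.29 ± 0.19 SE, edgeR adjusted p = 0.000818). The FBS groups overlapped, and the paused groups did not. Fads1, another desaturase, fell by 0.64 in WT cells and rose by 0.56 in KO cells (difference 1.2 ± 0.16 SE). Acss2, which makes acetyl-CoA from acetate, was the lower member (-1.36 ± 0.24 SE).

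Glycolysis genes gave 3 higher and 0 lower of 24 (median 0.23), a share near the 9.61% of all genes, and 11 and 2 without WT FBS replicate 1. The 2 called genes outside the chromosome stretches include Pdk1. Pdk1 is a kinase that turns pyruvate away from the mitochondrion. It rose in KO cells from 74.1, 88.0 and 84.2 to 293, 322 and 328 CPM, and WT libraries held 162 to 215 CPM in FBS and 212 to 265 when paused. KO libraries thus went from the lowest to the highest of all groups (difference 1.63 ± 0.17 SE, edgeR adjusted p = 7.22e-05).

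The machinery of growth showed few called differences by edgeR on all libraries. Ribosomal proteins gave 4 higher and 0 lower of 77 (median 0.32), ribosome biogenesis factors 2 and 1 of 46, translation factors 2 and 0 of 47, nuclear-encoded oxidative phosphorylation genes 5 and 0 of 69, and growth genes activated by Myc 2 and 0 of 30. In WT cells pausing lowered 10, 29, 33, 36 and 18 members of these lists, beside 20.2% of all genes. In KO cells it lowered 6, 18, 17, 13 and 7, beside 19.4%. All these edgeR shares of higher members are below the 9.61% of all genes that were higher. By DESeq2, 10, 3, 3, 6 and 2 members were higher and 1, 1, 3, 0 and 0 lower, in the same order. Of all 15281 genes DESeq2 called 1641 higher and 1581 lower. Without WT FBS replicate 1, 54, 25, 28, 48 and 18 members were higher, in the same order, beside 24.3% of all genes, so that these counts turn on that library. Without KO FBS replicate 1 the first 3 lists had 0 higher.

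Of 12 genes of the Myc family and Max network, 0 were called by edgeR, beside 17.9% of all genes. By DESeq2 0 were called, and 1 was lower by an unadjusted p below 0.05. In the fit without WT FBS replicate 1, 1 was higher and 3 were lower. Myc (0.03, edgeR adjusted p = 0.978), Mycn (-0.03, adjusted p = 0.959) and the mTOR target Eif4ebp1 (0.64, adjusted p = 0.158) were not called. Myc passed without WT FBS replicate 1 (0.41, edgeR adjusted p = 0.0127), as did Eif4ebp1 (0.88, edgeR adjusted p = 3.52e-05).

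Mitotic genes gained in paused KO cells relative to the typical gene. Of 40 genes of G2 and mitosis, 23 were higher and 1 lower, beside 9.61% and 8.26% of all genes (median 0.48). Pausing raised 24 of them in KO cells and 3 in WT cells, beside 23.3% and 18% of all genes. It lowered 2 in KO cells and 12 in WT cells, beside 19.4% and 20.2%. Plk1, a kinase of mitotic entry, fell in WT cells from 174, 153 and 164 to 111, 116 and 107 CPM and rose in KO cells from 94.0, 94.3 and 98.4 to 122, 116 and 109. FBS groups were far apart and paused groups overlapped (difference 0.83 ± 0.11 SE, edgeR adjusted p = 0.000414). Cenpa, the centromeric histone, fell by 0.23 in WT and rose by 0.54 in KO cells (difference 0.76 ± 0.11 SE), and Ccnb2, a mitotic cyclin, did likewise (0.71 ± 0.11 SE).

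The number of higher mitotic genes was 31 without WT FBS replicate 1 and 15 without KO paused replicate 1. Per cell 0 of the 40 were called by edgeR and 0 by DESeq2, 13 were higher by an unadjusted p below 0.05, and the median was 0.77. Plk1 stood at 1.10 there (adjusted p = 0.164). DNA replication genes gave 6 higher and 2 lower of 42 (median 0.19), p53 targets 5 and 0 of 24 (median 0.37), and G1 cyclins and their inhibitors 3 and 0 of 21, beside 9.61% and 8.26% of all genes. These were 24 and 2, 15 and 0, and 7 and 0 without WT FBS replicate 1. Without KO FBS replicate 1, 4, 3 and 2 were higher. Per cell, 0 replication genes (0 by DESeq2, 4 by an unadjusted p below 0.05) and 2 p53 targets were higher. Cdk6, a kinase of G1, rose in both genotypes and more in KO cells (0.24 and 1.35, difference 1.10 ± 0.12 SE). Bbc3, a p53 target that promotes apoptosis, rose in KO cells by 1.08 and was not called in WT cells (difference 1.48 ± 0.22 SE).

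Imprinted genes, expressed from 1 parental copy, gave 5 higher and 5 lower of 31, beside 9.61% and 8.26% of all genes (median -0.01). Without WT FBS replicate 1 they gave 6 and 8, beside 24.3% and 17.1%. Peg12 held 4.94, 5.16 and 4.72 CPM in KO FBS and 12.5, 14.7 and 14.8 in KO paused libraries, and 1.85 to 2.35 CPM in all WT libraries (difference 1.68 ± 0.20 SE, edgeR adjusted p = 0.00015). Meg3, a long noncoding RNA, rose in WT cells from 19.5, 28.8 and 30.8 to 61.6, 55.3 and 74.3 CPM and held 2.72 to 3.50 CPM in all KO libraries (difference -1.22 ± 0.26 SE, edgeR adjusted p = 0.0068). Of 14 DNA methylation enzymes, 1 was higher and 3 were lower, beside 9.61% and 8.26% of all genes, and 4 and 4 without WT FBS replicate 1. The lower Tet2 (difference -1.19) lies in the chromosome 3 stretch described further on and went against most called genes there. Dnmt3l, a cofactor of the de novo enzymes, rose in WT cells by 1.54 and was not called in KO cells (difference -1.09 ± 0.27 SE), and Tet3 rose in both and more in KO cells (difference 0.73 ± 0.17 SE).

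**Figure D3:**
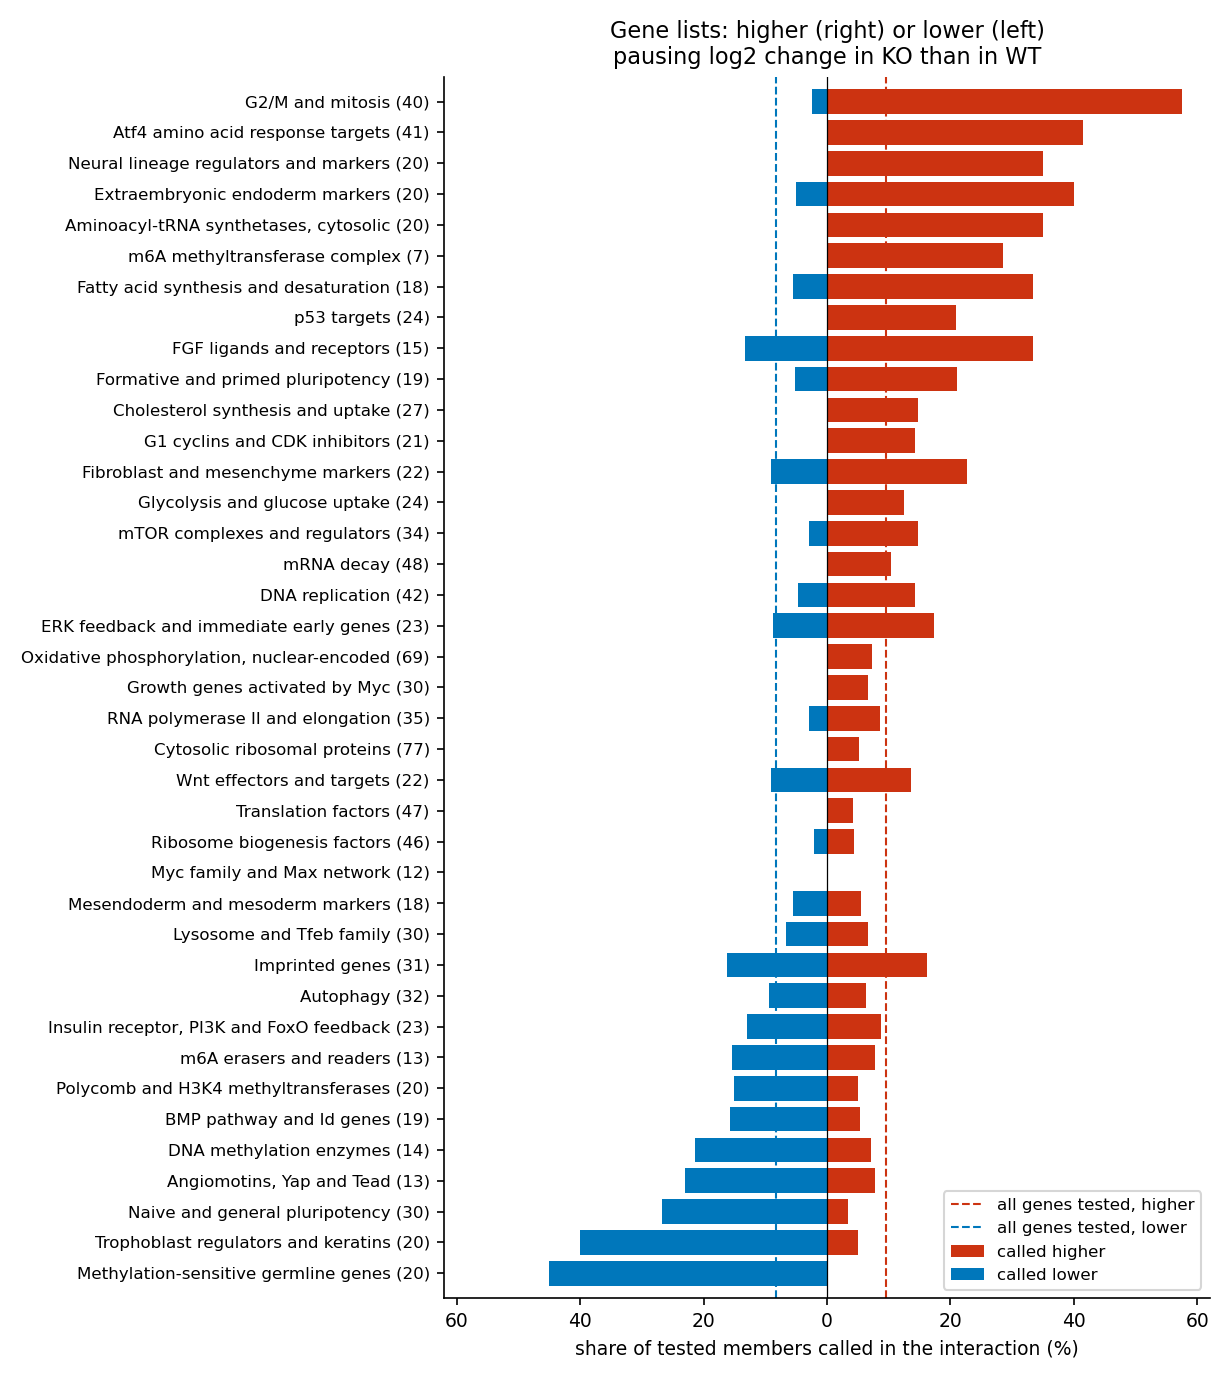
Bars give the share (%) of each list's tested members (number in parentheses) called higher (right) or lower (left), and dashed lines the shares of all tested genes, 9.61% and 8.26%. Mitotic genes and Atf4 targets reach farthest to the right, and germline and trophoblast genes farthest to the left.

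Of 7 tested genes of the m6A methyltransferase complex, 2 were higher and 0 lower, beside 9.61% and 8.26% of all genes. Mettl14, the partner of Mettl3 (chromosome 3, 123368297 to 123386108), went from 42.2, 41.8 and 37.3 to 30, 30.3 and 31.3 CPM in WT cells and from 25.6, 24.4 and 24.9 to 39.9, 39.6 and 40.5 in KO cells. It fell in WT and rose in KO cells without overlap (difference 1.08 ± 0.11 SE, edgeR adjusted p = 7e-05). Rbm15, an adaptor of the complex, rose in KO cells by 1.12 (difference 1.15 ± 0.21 SE). Both lie in a stretch of chromosome 3 where genes of unrelated function moved in the same direction, and the median of 50 neighbours of Mettl14 was 0.59. Of the complex's other 5 tested genes, 0 were called by edgeR, 0 by DESeq2 and 0 by an unadjusted p below 0.05.

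The genome held 3 stretches whose genes moved together, found as runs of at least 3 blocks of 50 neighbouring genes. Each block's median difference lay beyond a set margin from the median of all genes, on the same side within a run. The stretches were thus chosen by these same values, so an excess of calls within them is no separate result. On chromosome 3, from 100922202 to 141834924, 105 of 200 tested genes were higher and 8 lower, with a median of 0.85. The median genes of KO paused libraries stood 0.52 to 0.55 above their mean over all libraries there, and the other 9 libraries -0.27 to -0.11. On chromosome 1, from 3205901 to 58595964, 76 of 200 genes were lower and 3 higher (median -0.59), and on chromosome 11, from 83572919 to 121843423, 126 of 564 were lower and 8 higher (median -0.36). KO FBS libraries stood at 0.28 to 0.34 and 0.31 to 0.38 in these 2 stretches. KO paused libraries stood below all others on chromosome 1, at -0.38 to -0.36. On chromosome 11 they stood at -0.14 to -0.09 and overlapped WT libraries.

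In each stretch the shift was in KO libraries, and the median pausing change in WT cells was -0.09 to -0.05. DNA copy number was not measured here, and its part in the result was not tested. The 3 stretches hold 964 tested genes (6.31%) and 326 of the calls (11.9%). Outside them 2405 genes were called, 16.8% of those tested, with 1353 higher and 1052 lower. Eif4e, the cap-binding factor held in check by Eif4ebp1, lies in the chromosome 3 stretch (difference 1.87 ± 0.24 SE), as do Tet2 and the mTOR scaffold genes Lamtor3 and Lamtor5, and Prdm14 lies in that of chromosome 1. Tet2 was lower, against most called genes of its stretch. Of 34 genes of mTOR complexes and their regulators, 5 were higher and 1 lower, beside 9.61% and 8.26% of all genes, and 3 of the 6 lie in a stretch. Outside the stretches 3 of 30 were higher and 0 lower by edgeR, with the share higher near that of all genes. The whole list had 9 higher and 4 lower without WT FBS replicate 1, and 3 higher without KO FBS replicate 1.

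**Figure D4:**
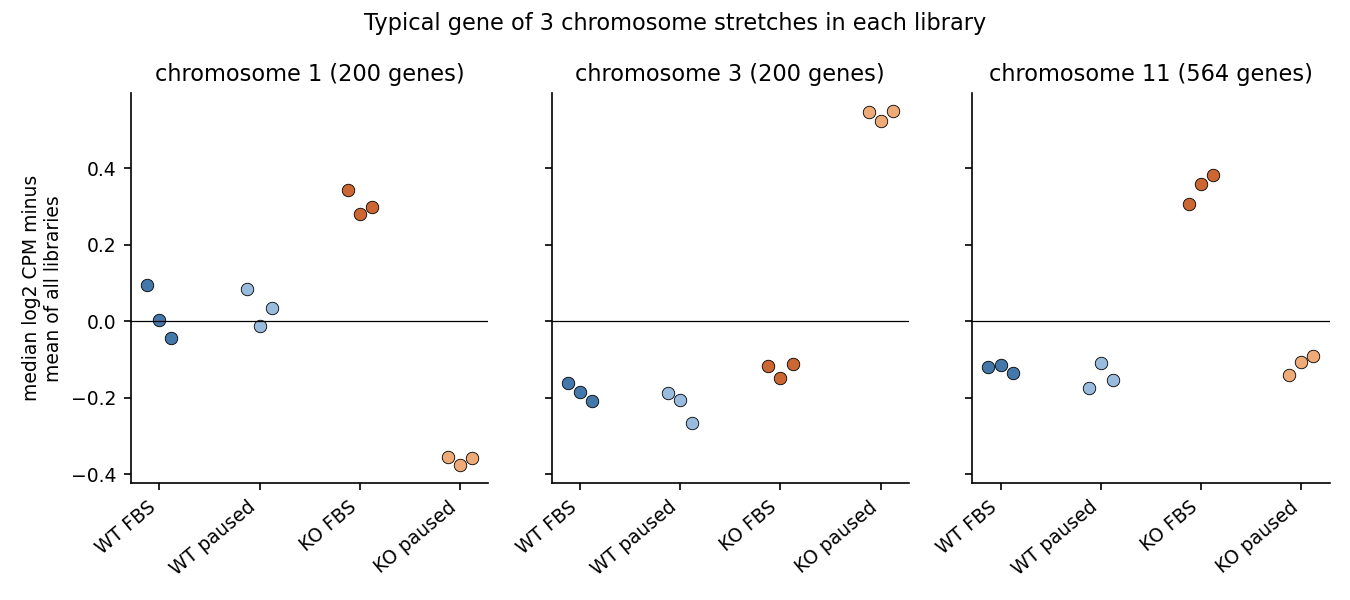
Points are libraries, placed by the median over a stretch's genes of log2 CPM minus the mean of all libraries. KO paused libraries stand apart upward on chromosome 3 and downward on chromosome 1, and KO FBS libraries stand apart upward on chromosomes 1 and 11.

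RNA per cell, read as gene counts over ERCC counts, fell on pausing in both genotypes. The ratio was 72.3, 73.3 and 74.6 in WT FBS libraries and 29.0, 37.4 and 32.6 in WT paused libraries. It was 47.5, 93.5 and 64.6 in KO FBS and 36.5, 40.3 and 38.2 in KO paused libraries. Paused and FBS libraries did not overlap in either genotype, and KO FBS libraries spread far more than the others (68.5 ± 23.3 SD against 73.4 ± 1.15 in WT FBS, n = 3 each). The log2 change was -1.16 in WT and -0.78 in KO cells. Their difference of 0.38 ± 0.30 SE did not pass the two-sided exact permutation test (p = 0.24, smallest possible 0.005). Without KO FBS replicate 2 it was 0.63 (exact p = 0.01), and without KO FBS replicate 1 it was 0.14.

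**Figure D5:**
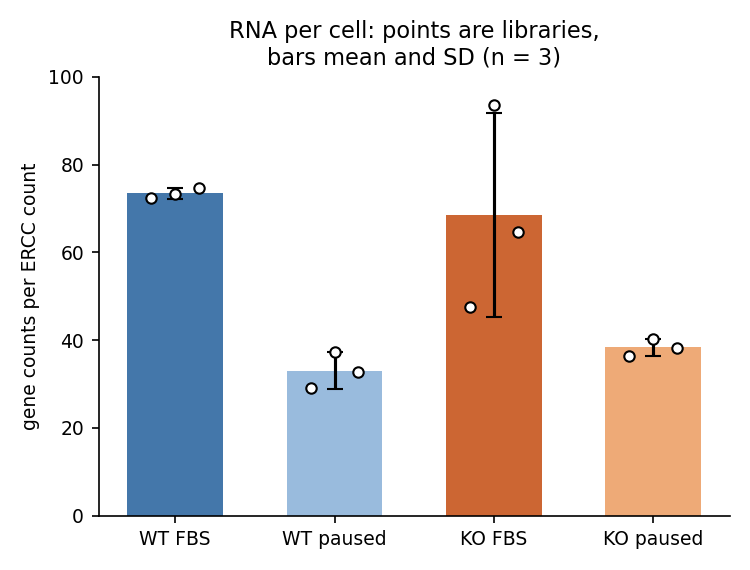
Points give the ratio of gene counts to ERCC counts in each library, and bars the group mean with its SD (n = 3). The 6 paused libraries lie between 29.0 and 40.3, and KO FBS libraries range from 47.5 to 93.5.

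Per cell, 464 genes (3.04%) were higher and 254 (1.66%) lower, 4.7% in all, around a median of 0.37. The shift of the median raises every value, and higher genes made up 64.6% of calls per cell against 53.8% on the relative scale. Called in the same direction on both scales were 379 higher and 248 lower genes, and 0 in opposite directions. Of the genes named above with a call, Nanog, Klf4, Zfp57, Prdm14, Tet2, Fgfr2, Piwil2, Sycp1, Lamc1, Spry2, Etv1, Cebpg, Got1, Gars, Acss2, Plk1, Cenpa, Ccnb2, Meg3, Dnmt3l, Tet3 and Mettl14 kept their direction per cell and were not called there. The per-cell count higher was 1465 without KO FBS replicate 2, and 243 to 306 without any one of WT FBS replicates 2 and 3, WT paused replicates 1 and 3, KO FBS replicate 3 and KO paused replicates 2 and 3. The count lower was 407 without KO FBS replicate 1, and 135 to 165 without any one of WT FBS replicate 2, WT paused replicates 2 and 3, KO FBS replicate 3 and the 3 KO paused replicates.

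Single genes outside these lists differed as well, and those named here, apart from Epas1, reversed their direction between genotypes. Heph, a copper-dependent iron oxidase (X chromosome, 96455359 to 96574485), rose in WT cells from 1.06, 1.23 and 1.09 to 7.30, 5.03 and 4.79 CPM. In KO cells it fell from 6.61, 6.99 and 7.06 to 0.930, 0.884 and 1.25 CPM. Each genotype's paused level resembled the other's FBS level (difference -5.02 ± 0.29 SE, edgeR adjusted p = 2.94e-06), and the per-cell value of -4.74 was called too. Ptgs2, a prostaglandin synthase, rose by 1.10 in WT and fell by 2.56 in KO cells, and Ccdc141 rose by 1.65 and fell by 2.05. Epas1, a hypoxia-inducible factor, held 63.5, 84.0 and 77.2 CPM in KO FBS and 7.20, 8.56 and 7.22 in KO paused libraries, while WT groups overlapped between 111 and 273 CPM (difference -3.30 ± 0.36 SE, edgeR adjusted p = 9.29e-05). The long noncoding RNA Miat fell by 1.64 in WT and rose by 1.95 in KO cells (difference 3.58 ± 0.52 SE).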

How the data were processed

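RNA-seq of 12 libraries was read from the authors' deposited counts per gene and per ERCC spike-in, raw and not normalized. Per the submitters' processing notes, Trim Galore 0.4.0, Subread 1.5.0 with featureCounts, edgeR 3.32.1 and mm10 were used; for the annotation and the strand counted, the sources used here name none. The authors' deposited log2 values entered 1 alternative. Per the labels' protocols, 2 µl of ERCC RNA was added to lysates of equal cell number. Rows were kept by filterByExpr (minimum count 10, total 15). edgeR 4.0.16 (R 4.3.3) quasi-likelihood fits of all 12 libraries gave the genotype by pausing interaction, with TMM factors over genes (relative) or ERCC totals times TMM factors over ERCC rows (per cell), and Benjamini-Hochberg adjustment over all tested genes at 0.05. RNA per cell used a two-sided exact permutation test over 400 arrangements of genotype within condition, which keeps any overall genotype gap in the null and widens it. The script was tested on simulated data. Alternatives used DESeq2 1.42.0, limma 3.58.1, other scalings, filters and left-out libraries. The members and lists were chosen with earlier results of these data known. Named genes were Nanog, Sox2, Pou5f1, Myc, Mycn, Eif4ebp1, Mettl14 and Mettl3 in any case, the 12 highest and 12 lowest called genes with a group mean of at least 5 CPM, the 8 strongest called in opposite directions, and in each list the members of smallest p (6 at most) with any called against its majority; the text names fewer. Positions are GRCm38. PCR reads carry no molecular identifiers. Libraries are unequal in depth, which limits low genes most in WT FBS replicate 1 and WT paused replicates 1 and 2.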

Additional observations from a re-analysis of the deposited data

Results flagged for a closer look

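The pausing effect differed between genotypes by the interaction test at 1469 genes with a higher and 1262 with a lower effect in KO cells. Among named genes called in opposite directions in the genotypes, the difference (log2) was -5.02 for Heph, -4.43 for Gata3, -3.69 for Ccdc141, -3.66 for Ptgs2 and -1.31 for Nanog, which rose in WT and fell in KO cells. It was 4.30 for Insm1 and 3.58 for Miat, which fell in WT and rose in KO cells. The fitted values of Acta2 (6.29) and Six3 (8.28) depend on the prior count, since the WT paused libraries held 1 and 0 counts of them.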

How the results depend on the processing

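Leaving out 1 library at a time gave 909 to 3796 genes higher and 895 to 2667 lower on the relative scale, and 243 to 1465 higher and 135 to 407 lower per cell. Without chromosomes 1, 3, 8, 11 and Y, with fewer genes tested, 969 were higher. The DESeq2 fit gave 1641 higher and 1581 lower, and RLE factors 1336 and 1355. Replicate numbers were not taken to pair the libraries, since not every same-numbered pair passed a correlation of 0.1: deviations correlated at 0.17 to 0.31 for number 1, -0.0077 to 0.079 for number 2 and 0.1 to 0.25 for number 3. Replicate 1 libraries also shared a higher share of Rn45s (22.1% to 28% against 12.9% to 17.6%). With the replicate block, 1755 genes were higher and 1415 lower on the relative scale, and 1531 and 439 per cell. The block left the RNA per cell difference at 0.38. The exact permutation test with the block (p = 0.5) had only 8 arrangements, against 400 in the main test. With so few it could not pass whatever the values, and no conclusion is drawn from it. Without the block, single left-out libraries gave 0.14 to 0.63. The chromosome 1 and 11 medians were -0.16 and -0.17, and turned to 0.19 and 0.18 with ERCC scaling. The chromosome 3 median was 0.20, up to 0.22 as single libraries were left out (without WT FBS replicate 3), and 0.55 with ERCC scaling. The permutation p-values of whole chromosomes are not read, since shuffled genotype labels carry the chromosome's overall genotype gap. Among genes that were not called, leaving out single libraries gave -0.0109 to 0.131 for Mettl3, -0.346 to 0.410 for Myc, -0.210 to 0.208 for Mycn and -0.280 to 0.0138 for Pou5f1. Myc also turned to -0.0655 with the block, -0.00979 with RLE factors and -0.02998 with DESeq2. Per cell, where the median of all genes was 0.37 against 0.09 on the relative scale, Mycn turned to 0.242 and Pou5f1 to 0.0696. The cause was not tested. Without WT FBS replicate 1 fewer samples were compared, yet more genes were called.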
